A study of Mus musculus with 18 samples.

Results

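Translating ribosome affinity purification (TRAP) was compared with total RNA in primary mouse cortical astrocyte cultures that received no ethanol. The comparison was formed by taking every control dish with a library of both fractions, which gave dishes 22, 23 and 24 (replicates 4, 5 and 6) with 3 IP control and 3 input control libraries, 6 of the 18 libraries of the series. All cultures were made from postnatal cortices of mice that carry the transgene Aldh1l1-EGFP/Rpl10a (line JD130Htz/J, on a B6;FVB background), with equal numbers of males and females. Control dishes stood for 24 h in serum-free medium with 0 mM ethanol, in sealed chambers that held an open dish of water. The 6 ethanol libraries used for comparison (3 dishes, both fractions) came from the same kind of culture with 50 mM ethanol for 24 h. The remaining libraries were 3 IP control libraries of dishes without an input library and 3 IP ethanol libraries. Input was taken from the cleared lysate of each dish before the pull-down, so both fractions of a dish came from 1 lysate. The labels do not say whether the dishes came from separate litters. With each dish compared with itself, p-values measure how the difference between fractions varies from dish to dish. That spread may be partly technical.

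In these mice an EGFP tag is fused to RPL10A, a protein of the large ribosomal subunit, and the *Aldh1l1* promoter drives the fusion protein in astrocytes. Antibodies against EGFP pull down tagged ribosomes with the mRNA they carry, while the input holds all RNA of the cleared lysate. The method is built to leave behind RNA of untagged cells, RNA outside cytosolic ribosomes and mRNA that no ribosome holds. In bulk samples fewer cells of a type and less RNA per cell cannot be told apart. The study's methods describe pull-downs without antibody or from wild-type tissue that yielded at most traces of RNA. Libraries of such pull-downs were not analysed here.

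The 6 libraries held 89791590 to 112955046 read pairs, of which 75163647 to 94032838 were counted on genes. Levels are given as CPM, the read pairs of a gene relative to all pairs on genes in its library, after scaling for library composition. Differences are log2 fold changes of IP vs. input with the standard error (SE) of the fit, in which each dish was compared with itself. With edgeR's quasi-likelihood test and an adjusted p threshold of 0.05, 9864 of the 24495 genes tested (40.3%) differed. Of these, 5209 (21.3%) were higher and 4655 (19.0%) were lower in IP. In 11473 genes (46.8%) the 3 IP and 3 input libraries did not overlap. Most differences were small, with a median of 1.23-fold among the genes called. The large ones were mostly decreases, since 76 genes were over 2-fold higher and 1134 over 2-fold lower, and 16 and 398 genes passed 4-fold. Of 13488 genes whose mean reached 1 CPM, 37.5% were higher and 28.6% were lower, which is the nearer background for lists of well-expressed genes.

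**Figure D1:**
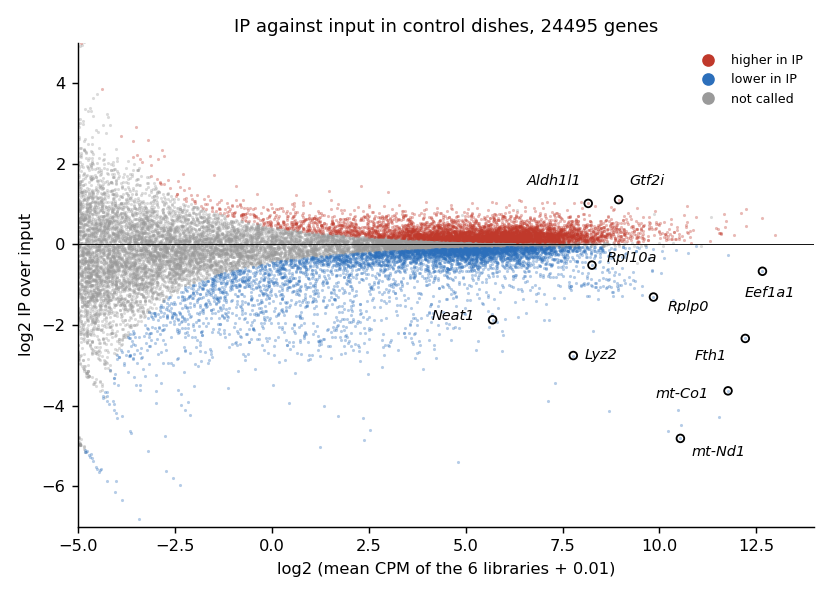
Log2 IP over input (y axis) against the log2 of the mean CPM of the 6 control libraries plus 0.01 (x axis, log scale), 1 point per gene, red for higher, blue for lower and grey for not called at an adjusted p of 0.05. A total of 3321 genes of very low level, 2 of them called, lie outside the axes. Increases stay near 1 on the log2 scale at high levels, while decreases reach -2.33 for *Fth1* and -4.81 for *mt-Nd1*.

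*Aldh1l1* (ENSMUSG00000030088, chromosome 6 from 90486427 to 90600203, GRCm38), the folate enzyme whose promoter drives the tag, had 186, 188 and 194 CPM in the input of dishes 22, 23 and 24 and 387, 367 and 395 CPM in IP. The fractions did not overlap, and the log2 fold change was 1.02 (SE 0.0232, n = 3 dishes). The 3 IP control libraries without an input library had 379 to 389 CPM. Whether reads of the transgene contribute to this gene was not tested.

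Astrocyte markers were higher in IP almost throughout. Of the 20 markers tested, 17 were higher and 1 was lower, with a median log2 fold change of 0.60, against -0.02 over all genes tested. Their summed level was 2844 to 2950 CPM in input and 4422 to 4488 CPM in IP, a ratio of 153.2%. A summed rise was not particular to this list. The ratio was 148.4% for oligodendrocyte lineage, 131.8% for mural, 122% for neuron and 113.1% for ependymal and choroid plexus markers. It was 97.6% for endothelial, 59.3% for fibroblast and meningeal and 23.5% for microglia markers. *Slc1a2*, the glutamate transporter GLT-1, had 65.6, 67.8 and 67.5 CPM in input and 119, 121 and 117 CPM in IP. *Gfap*, the intermediate filament of astrocytes, had 191, 198 and 201 CPM in input and 329, 334 and 333 CPM in IP. Both rose without overlap, by 0.83 (SE 0.0289) and 0.76 (SE 0.0234) on the log2 scale. *Mlc1*, a membrane protein of astrocyte endfeet, and *Glul*, glutamine synthetase, rose by 0.70 and 0.61. The increases were not uniform, and *Fgfr3* and *Id3* rose by only 0.08 and 0.09. Their calls were lost with total counts (adjusted p = 0.543 and 0.113 with edgeR) and with DESeq2 (adjusted p = 0.2 and 0.221). *Fgfr3* lost its call in further settings, among them scaling over the 6 libraries alone (adjusted p = 0.0998 with edgeR). Between 14 and 17 markers were called higher over the settings tried. *S100b*, a calcium-binding protein, was the exception in direction and fell from 3.53, 3.42 and 4.52 to 2.98, 2.40 and 2.61 CPM (log2 fold change -0.51, SE 0.108). *Gjb6* and *Ntsr2*, at means of 0.0110 and 0.672 CPM in input, did not pass the test.

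Microglia are brain macrophages that do not express *Aldh1l1*. Of 18 microglia markers tested, 0 were higher and 17 were lower in IP, with a median of -2.54, so that the median marker in IP stood at 17.2% of its input level. *Lyz2*, lysozyme, had 391, 373 and 380 CPM in input and 59.6, 57.3 and 52.8 CPM in IP, which is 14.8% of input. *Cx3cr1*, the fractalkine receptor, had 3.21, 2.98 and 3.36 CPM in input and 0.789, 0.525 and 0.445 CPM in IP. Every library of IP lay below every library of input for both genes. *Csf1r*, the receptor for colony stimulating factor 1, *Laptm5*, a lysosomal membrane protein of blood-lineage cells, and *Tyrobp*, a signalling adaptor of myeloid receptors, fell by 2.69, 2.81 and 2.61 on the log2 scale. The decreases were not of 1 size, and *Cd68*, a lysosomal protein, fell by 1.21. Among the markers averaging 1 CPM or more, the smallest decrease was a log2 fold change of -0.42. *P2ry12*, which marks resting microglia, was near 0 in both fractions (0.0456 to 0.159 CPM in input) and did not pass the test. The summed level of the list was 692 to 719 CPM in input and 161 to 171 CPM in IP.

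**Figure D2:**
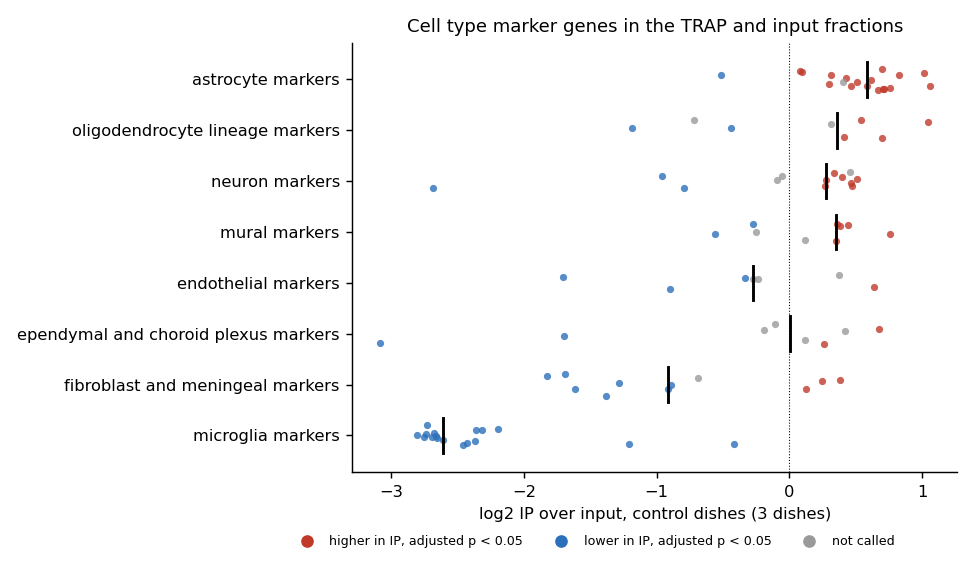
Log2 IP over input in the control dishes (x axis) for the members of 8 cell type marker lists with a mean of at least 0.1 CPM, 1 point per gene, coloured by call, with a black bar at the median of the members drawn. Astrocyte markers lie around 0.58 and microglia markers around -2.61, while fibroblast and meningeal markers spread from -1.83 to 0.38.

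Markers of other cells did not move as one group. Of 12 fibroblast and meningeal markers, 3 were higher and 7 were lower, with a median of -1.10. *Col1a1*, a chain of type I collagen, had 143, 142 and 144 CPM in input and 44.5, 42.0 and 46.2 CPM in IP (log2 fold change -1.69, SE 0.0300). *Col1a2*, the other chain of the same collagen, had 43.8, 45.0 and 46.4 CPM in input and 53.7, 50.9 and 55.9 CPM in IP (0.25, SE 0.0348). The 2 chains thus moved in opposite directions, each without overlap between fractions. *Dcn*, the proteoglycan decorin, fell by 1.83 on the log2 scale, and *Foxc1*, a transcription factor of meninges, rose by 0.38. Of 10 mural markers, 5 were higher and 2 were lower. The smooth muscle genes *Cnn1* and *Acta2* rose by 0.76 and 0.44, from means of 115 and 1186 CPM in input, whereas the pericyte receptor *Pdgfrb* fell by 0.56.

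Oligodendrocyte lineage markers moved in both directions. *Cspg4* (NG2), *Olig1*, *Olig2* and *Cnp* were higher in IP, by 1.04, 0.69, 0.54 and 0.41 on the log2 scale. Of the 13 markers tested, 2 were lower, among them the myelin gene *Mbp*, which fell by 1.18 at a mean of 3.93 CPM in input, and 7 did not pass the test. Of 16 neuron markers tested, 7 were higher, among them *Tubb3* (0.51) and *Stmn2* (0.27), and 3 were lower. *Gad2* was the lowest of them at -2.69, but its mean was only 0.380 CPM in input. Endothelial markers summed to 12.2 to 13.0 CPM in input, with 1 of 8 higher and 3 lower. Of 9 ependymal and choroid plexus markers, 2 were higher and 2 were lower. *Foxj1*, the regulator of motile cilia, had a mean of 365 CPM in input and rose by 0.26. *Ttr*, the thyroid hormone carrier made by choroid plexus, fell from 25.6, 30.2 and 23.7 CPM in input to 2.84, 3.72 and 2.83 CPM in IP, the largest decrease of a nuclear protein-coding gene averaging 5 CPM or more.

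Mitochondria carry their own genome and ribosomes, which hold no RPL10A, so their mRNAs serve as RNA outside the tagged ribosomes. All 13 mitochondrially encoded mRNAs were lower in IP, with a median of -4.29. Together they summed to 22430 to 25230 CPM in input and 1300 to 1396 CPM in IP, or 5.65% of input. *mt-Cytb*, cytochrome b, had 5981, 5422 and 5695 CPM in input and 288, 301 and 285 CPM in IP, and *mt-Nd1*, a subunit of complex I, had 3060, 2707 and 2856 CPM against 96.4, 111 and 100 CPM. *mt-Co1*, a subunit of cytochrome oxidase, had the smallest decrease (-3.63, SE 0.0898). The ribosomal RNAs of the mitochondrion, *mt-Rnr1* and *mt-Rnr2*, fell by 3.89 and 3.43. Read pairs that mapped to more than 1 place were not counted, and parts of the mitochondrial genome have near-identical nuclear copies, so the low levels of *mt-Co2*, *mt-Co3*, *mt-Atp6* and *mt-Atp8* (means of 0.0707 to 9.62 CPM in input) are uncertain. The pseudogenes *Gm10925* and *Gm28661* on chromosome 1, at 10.6, 10.0 and 9.13 CPM and 11.08, 10.91 and 11.03 CPM in input, fell by 4.85 and 4.61. *mt-Atp8*, listed at 0 in all 3 IP libraries, and *mt-Rnr2* lost their calls without dish 22 (adjusted p = 0.174 and 0.134 with edgeR) and without dish 24 (0.0542 and 0.0698).

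Nuclear long noncoding RNAs, hosts of small nucleolar RNAs and small structured RNAs were also mostly lower in IP. Of 14 nuclear long noncoding RNAs tested, 9 were lower and 1 was higher, with a median of -0.67. *Neat1*, the scaffold of paraspeckles, had 82.5, 79.3 and 81.6 CPM in input and 22.2, 21.8 and 22.6 CPM in IP, and *Malat1*, of nuclear speckles, had 56.0, 59.1 and 58.1 CPM against 20.2, 24.6 and 24.7 CPM. *Xist*, which coats the inactive X chromosome, was the one called higher (1.33, SE 0.122), with 0.970, 1.81 and 1.80 CPM in input and 1.74, 4.56 and 5.60 CPM in IP. The fractions overlapped for *Xist*, and its call was lost without the dish as a block (adjusted p = 0.161 with edgeR). Hosts of small nucleolar RNAs, spliced transcripts whose introns hold those RNAs, were lower in 13 of 16 and higher in 0, with a median of -0.83. *Gas5* had 146.1, 155.4 and 145.8 CPM in input and 73.7, 73.5 and 73.7 CPM in IP, and *Zfas1* fell by 1.17 on the log2 scale. Of 5 small structured RNAs tested, 3 were lower, among them *Rpph1* (RNase P RNA, -2.69) and *Rn7sk* (-1.05), which were at means of 2.70 and 2.56 CPM in input.

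**Figure D3:**
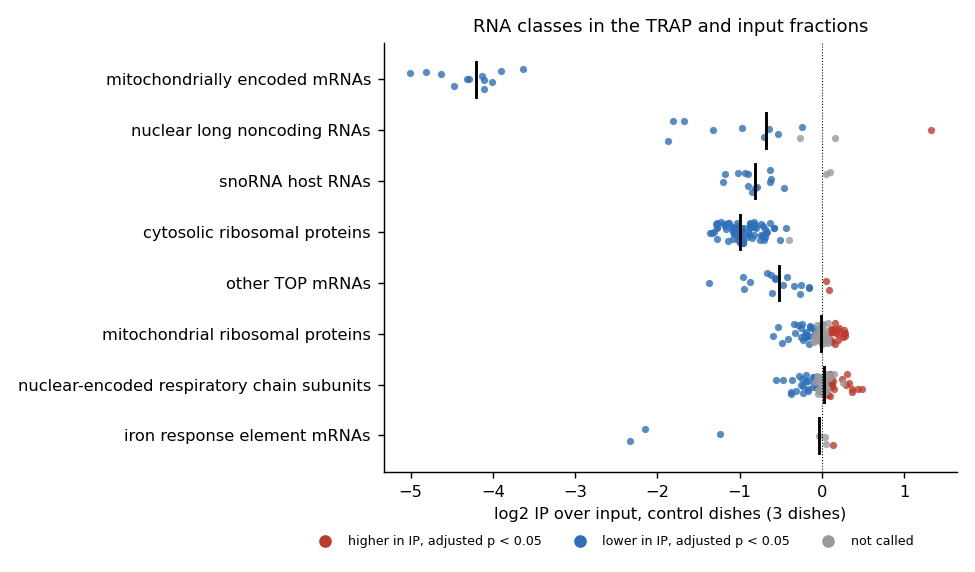
Log2 IP over input in the control dishes (x axis) for the members of 8 RNA classes with a mean of at least 0.1 CPM, 1 point per gene, coloured by call, with a black bar at the median of the members drawn. Mitochondrially encoded mRNAs lie around -4.21 and cytosolic ribosomal protein mRNAs around -0.99, while mRNAs of mitochondrial ribosomal proteins and respiratory chain subunits centre near 0.

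Messenger RNAs of the translation machinery begin with a terminal oligopyrimidine (TOP) stretch, a run of C and T at the 5′ end through which growth signals and LARP1 control their loading onto ribosomes. Of 79 cytosolic ribosomal protein mRNAs tested, 78 were lower in IP and 0 were higher, with a median log2 fold change of -0.99. Their decreases were narrowly spread, from -1.36 to -0.43, and in all 78 the fractions did not overlap. *Rpl24* did not pass the test, but the gene so named in the table was at 0.194, 0.238 and 0.0680 CPM in input. The summed level of the list was 37330 to 38560 CPM in input and 19420 to 20560 CPM in IP. *Rps12*, a protein of the small subunit, had 482, 496 and 484 CPM in input and 198, 183 and 190 CPM in IP, or 39.0% of input. *Rplp0*, of the ribosomal stalk, had 1313, 1318 and 1295 CPM against 547, 520 and 524 CPM. The smallest decreases were those of *Rpl22* (-0.43) and *Rpl10a* (-0.51). *Rpl10a*, the gene whose protein carries the tag (ENSMUSG00000037805, chromosome 17), had 361, 369 and 350 CPM in input and 259, 242 and 255 CPM in IP, and reads of the transgene cannot be told apart from its own.

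Among 18 other TOP mRNAs, 16 were lower and 2 were higher, with a median of -0.52. The decreases ranged widely. *Tpt1*, the tumour protein TCTP, had 1925, 1867 and 1849 CPM in input and 759, 698 and 726 CPM in IP (-1.37, SE 0.0200). *Rack1*, which sits on the small subunit, and *Eef1a1*, the elongation factor that brings tRNA to the ribosome, fell by 0.96 and 0.67. *Eef2*, the elongation factor of translocation, fell by only 0.25, from a mean of 3823 CPM in input to 3209 CPM in IP. *Hnrnpa1*, a splicing factor, and *Eif4b*, an initiation factor, were called higher by 0.09 and 0.05 on the log2 scale. Neither was called when libraries were scaled by total counts (adjusted p = 0.207 and 0.94 with edgeR). *Eif4b* lost its call in most other settings too, among them no dish block (adjusted p = 0.0839 with edgeR) and DESeq2 (adjusted p = 0.121).

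RefSeq start sites were used to show what these 5′ ends look like. In 68 start sites of 58 matched ribosomal protein genes, 18 (26.5%) held an unbroken run of at least 8 letters that are each C or T over the start base, read on the strand of the gene. The share was 35.7% in 14 start sites of other TOP mRNAs and 3.86% in all 32851 promoters of the table. With runs that reached within 10 bases of the start also counted, the shares were 42.6%, 42.9% and 14%, in the same order. Windows of 30 bases (10 before the start base and 20 from it on) follow for 3 ribosomal protein genes with large decreases, *Rpl7a* with a smaller one, and *Eif3l* and *Nap1l1*, which have the same kind of run. They were chosen for having a run, and a decrease did not require one at the annotated start. The starts of *Tpt1*, *Rps12* and *Rplp0*, which fell by 1.37, 1.36 and 1.30, held no C or T at the start base (a run of 0). *Rps12* did have a run of 11 letters within 10 bases of its annotated start, but not over it. *Rps24* has a second annotated start without a run. Coordinates are those of GRCm38.p6, and capitals mark the run.
*Rps27*, chr3:90213629-90213658, minus strand: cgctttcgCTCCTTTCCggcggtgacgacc
*Rps24*, chr14:24490668-24490697, plus strand: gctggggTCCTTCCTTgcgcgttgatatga
*Rpl35*, chr2:39005112-39005141, minus strand: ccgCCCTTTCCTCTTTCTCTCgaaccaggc
*Rpl7a*, chr2:26910797-26910826, plus strand: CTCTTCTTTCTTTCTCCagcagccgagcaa
*Eif3l*, chr15:79075213-79075242, plus strand: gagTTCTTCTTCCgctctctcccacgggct
*Nap1l1*, chr10:111473217-111473246, plus strand: gctctcgggTCTTTTTTagcgccatctgct
The log2 fold changes beside these sequences were -1.28 for *Rps27* and *Rps24*, -1.16 for *Rpl35*, -0.74 for *Rpl7a*, -0.15 for *Eif3l* (subunit of initiation factor 3) and -0.16 for *Nap1l1* (a histone chaperone). The longest run of the 6, of 21 letters in *Rpl7a* and partly outside the window, stood beside a decrease between the extremes. Outside the ribosomal protein and other TOP lists, 475 genes with such a run over a start had a median log2 fold change of 0.02 and 31.4% were lower in IP. The 9388 genes without one had a median of 0.04 and 26.9% lower.

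Ferritin stores iron, and its mRNAs are held back from ribosomes by iron regulatory proteins that bind an iron response element, a stem and loop in the 5′ UTR, when iron is low. *Fth1*, the heavy chain of ferritin, had 8027, 7947 and 7814 CPM in the input of dishes 22, 23 and 24 and 1584, 1579 and 1563 CPM in IP, or 19.9% of input (log2 fold change -2.33, SE 0.0188). *Ftl1*, the light chain, had 519, 527 and 489 CPM against 116, 115 and 115 CPM, or 22.6% of input (-2.15, SE 0.0240). The other 3 IP control libraries had 1410 to 1673 CPM of *Fth1*. *Slc40a1*, the iron exporter ferroportin, was at a low level and fell from 1.75, 1.14 and 1.53 to 0.603, 0.656 and 0.594 CPM (-1.24, SE 0.191). Beside these values, 17 of the 18 microglia markers fell, with a median at 17.2% of input and a summed level that went from 692 to 719 CPM in input to 161 to 171 CPM in IP, and the part of these cells in the ferritin values was not tested.

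The other mRNAs listed for the element did not pass the test or were higher. *Epas1*, the hypoxia factor HIF-2 alpha, had 260, 260 and 269 CPM in input and 263, 269 and 281 CPM in IP. It was not called (0.04, adjusted p = 0.123 with edgeR's quasi-likelihood test), but without dish 22 it passed as higher, by 0.06 (adjusted p = 0.0275). *Slc11a2*, an iron importer, was also not called (-0.04, or -0.09 and lower with total counts, adjusted p = 0.00433 with edgeR), and *Tfrc*, the transferrin receptor, rose by 0.14. *Slc11a2* and *Tfrc* carry the element in the 3′ UTR. Of the 7 mRNAs listed, 3 were lower and 1 was higher. The 5′ UTR elements were read from GENCODE M21 transcripts on GRCm38, as 28 bases with the bulged C and the letters CAGTG of the loop in capitals.
*Fth1*, chr19:9982733-9982760, plus strand: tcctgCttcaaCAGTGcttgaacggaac
*Ftl1*, chr7:45459779-45459806, minus strand: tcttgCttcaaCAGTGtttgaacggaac
*Slc40a1*, chr1:45925465-45925492, minus strand: aacttCagctaCAGTGttagctaagttt
*Epas1*, chr17:86753769-86753796, plus strand: acaatCctcggCAGTGtcctgagactgt
A C followed by 5 letters of any kind, CAGTG and 1 more letter, searched on the transcript strand, occurred in the 5′ UTR of 2209 of 16765 genes (13.2%). In 30 genes (0.179%) the 5 letters before and after the 6 bases of the loop could also pair, G with T included, and of the genes shown this held for all but *Epas1*, in which 3 of the 5 letters paired. Of these 30 genes, 8 were lower, 6 were higher and 16 were not called, against 19.0% and 21.3% of all genes.

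**Figure D4:**
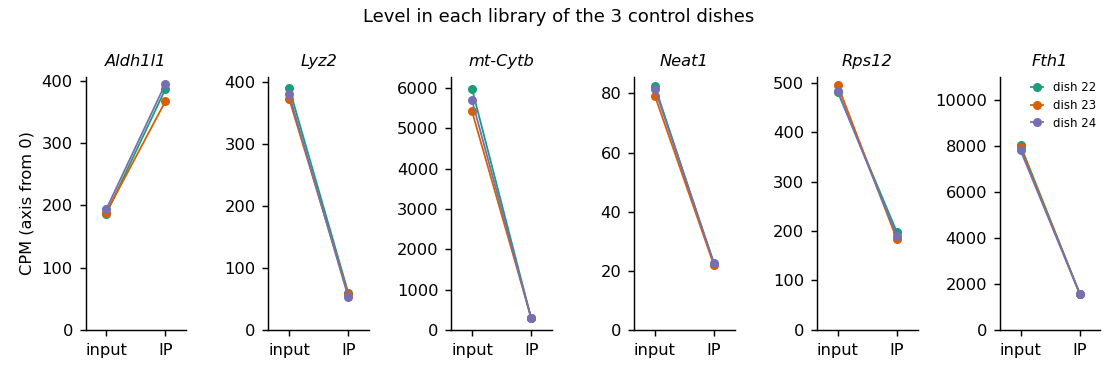
CPM (y axes, each from 0) of 6 genes in input and IP, with 1 line per control dish (22, 23 and 24). In every dish *Aldh1l1* rises, while *Lyz2* (microglia), *mt-Cytb* (mitochondrial), *Neat1* (nuclear), *Rps12* (ribosomal protein) and *Fth1* (ferritin) fall, and the 3 dishes lie close together.

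Housekeeping mRNAs on cytosolic ribosomes were spread around 0. Of 77 mRNAs of mitochondrial ribosomal proteins, which are encoded in the nucleus, 20 were higher and 24 were lower, with a median of 0.00, from *Mrpl30* (-0.59) to *Mrpl46* (0.28). Of 80 nuclear-encoded subunits of the respiratory chain, 22 were higher and 23 were lower, with a median of 0.02. At the extremes, *Ndufv1* and *Ndufs1* of complex I rose by 0.48 and 0.45, and *Ndufa6* of complex I and *Atp5e* of ATP synthase fell by 0.55 and 0.47. With total counts these lists held 13 higher and 31 lower, and 15 higher and 27 lower, so the balance of higher and lower members rests on the scaling.

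Of 14 mRNAs with inhibitory upstream reading frames, short frames in the 5′ UTR that catch scanning ribosomes, 5 were higher and 6 were lower. *Ddit3*, the stress factor CHOP, had 95.1, 93.0 and 93.1 CPM in input and 65.4, 61.5 and 63.0 CPM in IP, a decrease of 0.57 on the log2 scale without overlap. *Amd1*, of polyamine synthesis, fell by 0.43, *Atf4*, the main regulator of the stress response, fell by 0.11 (adjusted p = 0.076 without dish 24, edgeR), and *Azin1*, the antizyme inhibitor, rose by 0.22. Selenoprotein mRNAs, in which a stop codon is read as selenocysteine, were split in the same way, with 7 of 20 higher and 9 lower. The mitochondrial thioredoxin reductase *Txnrd2* rose by 0.37, and *Selenow* and *Sephs2* fell by 0.42 and 0.46. Of 24 splicing regulators known to keep introns, 8 were higher and 9 were lower, *Ccnl1* falling by 0.54. Replication-dependent histone mRNAs, which as a class typically have no poly(A) tail, were higher in 12 and lower in 2 of the 58 tested, and 44 were not called. Over all genes tested, 21.3% were higher and 19.0% were lower. Only 17 of the 58 reached a mean of 1 CPM. Among the better expressed, *Hist1h1c* rose by 0.36 from a mean of 298 CPM in input and *Hist1h2bc* by 0.24 from 166.2 CPM. Whether the transcripts counted for these genes carried a tail was not tested. Near-identical copies make the values of single histone genes uncertain. Cell cycle genes had medians of 0.05 (S phase) and -0.02 (G2/M). Of 28 S phase genes 8 were higher and 5 were lower, and of 28 G2/M genes 3 were higher and 6 were lower. Among the G2/M genes, *Ube2c* and *Birc5* fell by 0.53 and 0.52. For the lists of this paragraph other than the histones, the nearer background is that of genes averaging 1 CPM or more. Of those genes 37.5% were higher and 28.6% were lower.

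Immediate early genes are switched on within minutes and make short-lived mRNAs. Of 24 tested, 6 were higher and 11 were lower in IP, with a median of -0.13. *Egr1*, a zinc finger factor, had 162.7, 190 and 135 CPM in input and 71.4, 80.7 and 60.0 CPM in IP. Its level differed between dishes in both fractions in the same order, and IP stood at 43.6% of input. *Ier2* and *Fos* were ordered in the same way, with 51.5, 60.1 and 41.1 CPM and 39.2, 45.7 and 28.8 CPM in input, and fell by 0.96 and 0.50 on the log2 scale. The fractions overlapped for *Fos*, with 26.1, 32.2 and 21.9 CPM in IP, and IP was below input within each dish. Its call was lost without the dish as a block (adjusted p = 0.219 with edgeR). *Klf4*, a pluripotency and stress factor, fell by 1.10 at a level of 54.9 to 55.7 CPM in input that hardly differed between dishes. *Jun*, a partner of *Fos*, rose instead, from 117, 124 and 120 CPM to 163.5, 165.7 and 165.1 CPM (0.46, SE 0.0258). *Ier3* rose by 0.32. The 3 IP control libraries of dishes without an input library had 39.7 to 43.9 CPM of *Egr1*, below all 3 IP libraries compared here.

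Matrix proteins are translated on the endoplasmic reticulum, and astrocytes secrete many of them. Of 34 secreted matrix proteins tested, 21 were higher and 10 were lower in IP, with a median of 0.26. The brain lecticans parted. *Bcan*, brevican, had 154.9, 165.5 and 167.9 CPM in input and 340, 331 and 346 CPM in IP, and *Ncan*, neurocan, had 62.9, 64.2 and 63.6 CPM against 121, 119 and 122 CPM. *Vcan*, versican, fell from 68.4, 67.0 and 66.4 to 26.5, 27.1 and 28.2 CPM (-1.30, SE 0.0364). *Bcan* was a member of the astrocyte list as well. *Spon1*, the adhesion protein spondin 1, rose by 1.10, and *Sparcl1*, hevin, by 0.69. Among the laminins, *Lama5* and *Lamb2* rose by 0.60 and 0.48, and *Lamb1* and *Lama4* fell by 0.77 and 0.60. The microfibril gene *Fbn2* and the thrombospondin *Thbs2* fell by 1.33 and 1.01. Of 12 fibroblast and meningeal markers, 7 were lower and 3 were higher, and the part of such cells in these values was not tested.

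The 12 largest increases among nuclear protein-coding genes averaging 5 CPM or more lay close together, between 1.02 and 1.29 on the log2 scale. *Myh8*, a myosin heavy chain of developing muscle, led with 5.52, 4.23 and 4.21 CPM in input and 11.4, 10.6 and 12.1 CPM in IP. *Gtf2i*, the transcription factor TFII-I, had 308, 310 and 318 CPM in input and 670, 667 and 681 CPM in IP. *Prpf6*, a protein of the spliceosome, had 145.6, 145.2 and 146.4 CPM against 299, 299 and 297 CPM. The others were *Spon1*, *Plagl1*, *Bcan*, *Gpc6*, *Slc38a3*, *Cspg4*, *Nfasc*, *Acsbg1* and *Crym*. These include a cell surface proteoglycan (*Gpc6*), a glutamine transporter (*Slc38a3*), a thyroid hormone binding protein (*Crym*) and a zinc finger factor subject to imprinting (*Plagl1*). Of the 12 largest decreases, all but *Ttr* are genes of macrophages or other myeloid cells. On the microglia list were *Laptm5*, *Lyz2*, *C1qc*, *Csf1r*, *Ctss*, *Itgam* and *Tyrobp*. The others were *Fpr1*, a receptor for formyl peptides (12.7, 13.3 and 12.1 CPM in input, 1.65, 1.54 and 1.43 CPM in IP), *Wfdc17*, *Adgre1* (F4/80) and the scavenger receptor *Marco*. *Adgre1* and *Marco* were not on the microglia list and fell to 18.2, 16.8 and 16.4 CPM from 109, 105 and 105 CPM, and to 11.5, 10.4 and 10.5 CPM from 66.5, 64.7 and 68.9 CPM.

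Among noncoding genes, the largest increases were those of *Gm15564* (0.97), *AU020206* (0.85), *Mir6236* (0.84), *9330102E08Rik* (0.81) and *B930095G15Rik* (0.74). *Gm15564* and *Mir6236* varied between dishes in the same order in input (16.3, 14.7 and 19.2 CPM, and 33.0, 30.1 and 39.7 CPM). The largest decrease, -5.40 for the mitochondrial tRNA gene *mt-Tp*, came from read pairs on the strand opposite to the gene. Processed pseudogenes whose mean reached 1 CPM were lower in 57 of 103 and higher in 14, with a median of -0.46, and could share reads with their parent genes. Long intergenic noncoding RNAs were lower in 71 of 191, with a median of -0.09, and protein-coding genes lower in 28.03% and higher in 38.6% of 12740, with a median of 0.04.

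Values also moved with coding length across genes. The 12719 nuclear protein-coding genes were put in 5 bins of about equal size. In the bin with the shortest coding length (111 to 780 bases), the median log2 fold change was -0.07, with 21.8% higher and 44.0% lower in IP. In the bin with the longest (2604 bases or more) the median was 0.11, with 50.1% higher and 19.4% lower. The bins between them rose in steps, with medians of 0.02, 0.06 and 0.09. Spearman's rho across genes, which share the same 6 libraries and are not independent replicates, was 0.236, and it was 0.224 over 12607 genes without the TOP and microglia lists. The number of exons had a rho of 0.199, transcript length 0.181 and GC content 0.0902, and in the bin with the most exons 52.1% of genes were higher and 19.1% lower, with a median of 0.11.

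**Figure D5:**
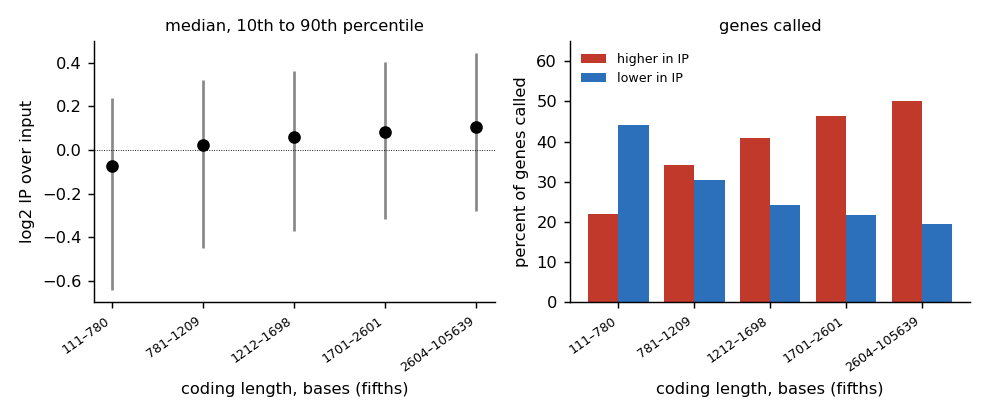
Nuclear protein-coding genes in 5 bins of coding length in bases (x axes). The left side shows the median log2 IP over input with bars from the 10th to the 90th percentile, and the right side the percent of genes called higher (red) or lower (blue) in IP. The median goes from -0.07 to 0.11, and the share of lower genes from 44.0% to 19.4%.

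The libraries of both fractions also differed in where their read pairs fell. Mitochondrial genes held 0.133%, 0.143% and 0.135% of the pairs on genes in IP and 2.64%, 2.36% and 2.45% in input. Pairs outside annotated genes were 3.45%, 3.08% and 3.36% in IP and 2.70%, 2.61% and 2.83% in input, and pairs mapped to several places 3.18%, 3.09% and 3.15% against 4.77%, 4.61% and 4.56%. None of these shares overlapped between fractions. The exact paired permutation test gave p = 0.25 in each case (two-sided, n = 3 dishes), the smallest value 3 dishes allow, and the exact permutation test of 3 against 3 libraries gave 0.1, also its smallest.

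The 3 ethanol-treated dishes with both fractions entered the gene filter and the scaling, but not the fit of the control dishes. In them 10078 genes (41.1%) differed between IP and input. Of the genes called in control dishes, 8493 were called in the same direction there, which is 86.1% of the control calls and 84.3% of the ethanol calls, and 2 were called in the opposite direction. List medians in ethanol-treated dishes were 0.60 for astrocyte markers, -2.47 for microglia markers and -1.05 for cytosolic ribosomal proteins. The difference of IP vs. input between treatments, tested as an interaction with the dish as a block, passed the threshold for 64 genes (0.261%), of which 45 had a higher and 19 a lower IP over input ratio with ethanol. This number rested on the model, since it was 2 without the block, 63 with DESeq2, and 102 when the scaling was computed over these 12 libraries alone. For *Aldh1l1* the difference was 0.06 (SE 0.0330, adjusted p = 0.746) and for *Rpl10a* it was -0.02 (SE 0.0327, adjusted p = 0.969), and neither passed the test (edgeR).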

How the data were processed

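The authors trimmed reads with Trimmomatic, aligned them to GRCm38 and counted pairs per gene with STAR, and the deposited counts are raw. Counts ignore strand and hold uniquely mapped pairs, with 4.32% to 4.48% antisense to their gene. A sum of 10 or more pairs across all 18 libraries left 24495 genes. The 6 control libraries were fitted with edgeR 4.0.16 (R 4.3.3, TMM factors of the 18 libraries, robust quasi-likelihood) with the dish as a block, and p-values were adjusted by Benjamini and Hochberg (threshold 0.05). The smallest lie below what the software represents and are not printed. The SE is the log2 fold change divided by the square root of F. On simulated data 39 of 50 genes changed 1.25-fold, 49 of 50 changed 1.5-fold and 50 of 50 changed 2-fold were recovered. All genes changed in the simulation averaged 1 CPM or more, so recovery at lower levels was not tested. The simulation held no effect of the dish. Of the calls there, 4.57% were false. Those data held 24495 genes with only 50 changed at each fold, against 9864 genes called in the control dishes. The share of false calls with that many changed genes was not tested.

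The pairing comes from the shared lysate. Deviations from group means correlated at 0.068 to 0.084 within and -0.048 to -0.022 between dishes (13488 genes). Since each mean is over 3 libraries, the negative values between dishes follow from the positive ones within dishes. Libraries of a group differed beyond sampling noise.

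Members and lists were chosen with earlier results of these data known, and lists got no test. By rule, the genes named were *Aldh1l1*, *Rpl10a*, the 12 largest nuclear protein-coding and 5 largest noncoding changes each way that were called, averaged 5 CPM or more and did not overlap, the mitochondrial mRNAs, up to 2 called extremes each way per list, and highly expressed markers. Other genes were named after their values were seen, and some list members are not reported here. Positions, coding lengths and UTRs are from GENCODE M21.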

Additional observations from a re-analysis of the deposited data

Results flagged for a closer look

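For 7 genes named in the text, the log2 IP over input ratio differed between ethanol-treated and control dishes in the interaction test with the dish as a block (edgeR, adjusted p below 0.05, 3 dishes each). Values are ethanol minus control. *Meg3*, an imprinted noncoding RNA at a mean of 2.55 CPM in control input, had a difference of 1.30 (SE 0.224, adjusted p = 4.27e-05), from -1.67 in control to -0.37 in ethanol-treated dishes. *mt-Rnr1*, the small ribosomal RNA of mitochondria, had a difference of -0.40 (SE 0.0443, adjusted p = 3.89e-15), from -3.89 to -4.30. The *Gnas* locus, which encodes the stimulatory G protein, had a difference of 0.38 (SE 0.0558, adjusted p = 1.89e-07), from -0.88 to -0.50. With only the read pairs on its own strand, *Gnas* was at -0.47 in control dishes, so the value of -0.88 includes antisense pairs, and the difference between treatments was not tested on that strand. *Lcp1*, plastin of blood-lineage cells, had a difference of -0.31 (SE 0.0540, adjusted p = 4.27e-05), from -1.48 to -1.80. *Col1a1* had a difference of 0.19 (SE 0.0414, adjusted p = 0.00738), from -1.69 to -1.51, and *Prpf6* had a difference of -0.13 (SE 0.0341, adjusted p = 0.0485), from 1.03 to 0.90. *Lama5*, a laminin chain, had a difference of 0.12 (SE 0.0306, adjusted p = 0.0445), from 0.60 to 0.72. Without the block, 2 genes passed in all. *Meg3*, *Gnas*, *Lcp1* and *Lama5* were singled out after their values were seen.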

How the results depend on the processing

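The number of genes that differed between IP and input in control dishes was 9864. DESeq2 with the dish as a block called 7920, the 9 control libraries without the block 10810. A test against a fold change of 1.2 called 3775 genes, 1571 higher and 2204 lower, so most differences were small. Without the replicate block, which the shared lysate justifies, 9950 genes were called. Leaving out 1 dish in turn gave 8463 to 9096 genes in all, 4553 to 4866 higher and 3910 to 4230 lower. Total counts moved the share of higher genes among those called from 52.8% to 43.4%, and the median log2 fold change from -0.018 to -0.066. TMM over the 6 libraries, added after the data were seen, called 9814. The count of genes with a difference between treatments was 64, and it fell to 2 without the replicate block and rose to 102 with TMM over the 12 libraries, also added after the data were seen, while DESeq2 gave 63. The difference in pairs outside genes was 0.581 percentage points and 0.619 with counts of the annotated strand, and 0.499 to 0.634 without 1 dish. Of 180 genes followed, 138 kept their call and direction in every alternative that gave a value, and 0 reversed. Cytosolic ribosomal protein mRNAs were lower in 78 of 79 in all 16 settings. In each setting 17 microglia markers were lower, of 18 tested or, with a stricter filter on low counts, of 17.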

Other observations

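Some genes lower in IP, chosen after their values were seen, are known from the midbrain and floor plate of the embryo rather than from cortex. *Foxa1* had 79.5, 77.1 and 76.1 CPM in input and 18.4, 18.1 and 19.9 CPM in IP, and *Foxa2* had 35.9, 35.7 and 35.3 CPM against 9.52, 9.04 and 8.95 CPM. *En1*, *En2* and *Lmx1b*, transcription factors of the midbrain and hindbrain, fell by 1.57, 1.43 and 1.06 on the log2 scale from means of 47.5, 112.7 and 84.9 CPM in input. *Cnpy1*, of the same boundary region, fell by 1.38. Which cells of the culture hold these transcripts was not tested.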
